A study of Mus musculus with 6 samples.

Results

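Tfeb, Tfe3 and Tfec, the relatives of Mitf, and Usf1 and Usf2, a pair of E-box factors, were examined in H3K27ac ChIP-seq of low pigment (LP) and high pigment (HP) B16 cells. These 5 genes, of 22028 protein-coding genes in the GENCODE annotation of mm10, were taken by name together with 20 kb on each side. B16 F10 is a mouse melanoma line, and the labels give no genotype, transgene or drug that separates the populations. The cells were grown for 5 days at 100 cells/cm2 in high-glucose DMEM with serum, and LP and HP cells were then separated by flow cytometry on side scatter, a gate that stands in for pigment. H3K27ac was precipitated with antibody ab4729 from 2 LP and 2 HP samples, and unsorted cells gave 2 IgG libraries, 1 for each replicate set, which the authors used as controls. Whether the replicates came from separate cultures is not stated, so p-values here measure only the spread between these samples, which may be technical. The question was whether these genes carried different acetylation in LP and HP cells.

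MITF, TFEB, TFE3 and TFEC form the MiT/TFE family of basic helix-loop-helix leucine zipper factors, which bind E-boxes as dimers with one another. MITF directs the pigment program of melanocytes, whereas TFEB and TFE3 are best known for switching on lysosomal and autophagy genes when the kinase mTORC1 no longer holds them in the cytoplasm. Melanosomes are lysosome-related organelles. USF1 and USF2 belong to a separate bHLH zipper family, are found in most cells, and bind the same CACGTG core. USF1 has been tied to the tanning response to ultraviolet light. H3K27ac marks active promoters and enhancers.

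Across the 4 H3K27ac libraries, 48 regions were found at the 5 genes, of 182956 in all. A region is a set of peaks from any of the 4 lists that overlap by at least 1 bp. Of the 48, 7 were called in all 4 libraries, and these lay at Tfeb (3), at Tfe3 (2), at Usf1 (1) and at Usf2 (1). This is 14.6% of the member regions, against 6.60% of all regions. These sets are unlike, since the member windows lie around genes. Of the 12084 regions called in all 4 libraries, 10064 lay within 3 kb of an annotated start. At Tfec there was no such region. Every library had a peak within 3 kb of the starts of Tfeb, Tfe3, Usf1 and Usf2, whereas no library had a peak within 3 kb of the start of Tfec. Of 21938 protein-coding genes on the standard chromosomes, 44.0% had a peak within 3 kb of the 5′ end in all 4 libraries and 32.9% had none in any library.

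The reference sequence before each start site shows how these promoters differ in base composition. The 250 bases upstream of the 5 gene starts and of Tfeb-208, a Tfeb transcript that begins inside intron 1, are given on the gene's strand from mm10, with CpG dinucleotides in capitals. No annotated exon of the gene lies in these windows.
Tfeb gene start, chr17:47736780-47737029 (+): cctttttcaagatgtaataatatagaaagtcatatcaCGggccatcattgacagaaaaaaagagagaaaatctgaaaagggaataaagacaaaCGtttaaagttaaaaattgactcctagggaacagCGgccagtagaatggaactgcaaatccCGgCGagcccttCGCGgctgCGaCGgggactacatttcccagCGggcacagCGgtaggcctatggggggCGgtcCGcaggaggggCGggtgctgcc
Tfeb-208 start, chr17:47762920-47763169 (+): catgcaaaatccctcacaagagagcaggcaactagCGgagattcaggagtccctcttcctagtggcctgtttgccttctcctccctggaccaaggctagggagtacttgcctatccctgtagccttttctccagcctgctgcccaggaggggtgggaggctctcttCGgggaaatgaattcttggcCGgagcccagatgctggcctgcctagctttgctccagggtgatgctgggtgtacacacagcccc
Tfe3 gene start, chrX:7762310-7762559 (+): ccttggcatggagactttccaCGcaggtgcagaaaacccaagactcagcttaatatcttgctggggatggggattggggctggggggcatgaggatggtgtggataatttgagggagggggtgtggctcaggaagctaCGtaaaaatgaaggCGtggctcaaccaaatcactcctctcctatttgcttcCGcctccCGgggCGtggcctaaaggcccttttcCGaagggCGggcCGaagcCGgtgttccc
Tfec gene start, chr6:16898442-16898691 (-): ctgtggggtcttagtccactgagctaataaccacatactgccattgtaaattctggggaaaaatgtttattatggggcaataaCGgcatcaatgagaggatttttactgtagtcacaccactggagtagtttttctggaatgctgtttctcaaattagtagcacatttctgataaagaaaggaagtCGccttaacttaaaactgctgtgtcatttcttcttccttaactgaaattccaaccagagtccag
Usf1 gene start, chr1:171411063-171411312 (+): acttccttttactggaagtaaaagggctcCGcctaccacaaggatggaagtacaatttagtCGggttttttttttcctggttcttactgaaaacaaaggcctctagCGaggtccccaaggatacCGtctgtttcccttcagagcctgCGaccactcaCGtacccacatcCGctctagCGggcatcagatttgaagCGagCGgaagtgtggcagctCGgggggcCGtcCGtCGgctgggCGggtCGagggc
Usf2 gene start, chr7:30956804-30957053 (-): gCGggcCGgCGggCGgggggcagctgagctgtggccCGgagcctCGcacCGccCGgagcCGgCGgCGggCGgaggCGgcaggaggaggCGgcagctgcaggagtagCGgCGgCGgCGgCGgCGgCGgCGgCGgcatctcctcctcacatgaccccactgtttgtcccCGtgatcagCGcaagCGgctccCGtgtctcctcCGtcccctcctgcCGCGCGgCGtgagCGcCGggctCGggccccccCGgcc

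The Usf2 window held 36 CpG, more than the windows of 97.3% of 21938 protein-coding genes, for which the median was 8. The windows of Usf1, Tfeb and Tfe3 held 16, 14 and 10. The Tfec window held 2 CpG at a GC content of 39.2%, against 79.6% for Usf2, and 16.8% of genes had fewer CpG. For comparison, the median was 16 CpG over the 9650 genes with a peak at the 5′ end in all 4 libraries and 2 over the 7211 genes with none. Usf1 was at the first of these medians and Tfec at the second. The window of Tfeb-208 held 3 CpG, and its start had a peak within 3 kb in all 4 libraries. None of the 6 windows held CACGTG, and TCATGTG was found once, in the Usf2 window as its reverse complement (6.53% and 2.94% of all such windows held a match to each, on either strand).

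Depth was similar between the populations, with 11467942 and 15353176 fragments in LP replicates 1 and 2 and 11483830 and 14254904 in HP. The height of a peak is given as its scaled pileup, fragments over the summit for every 1000000 fragments of the library. The lowest pileup in a list was 5 or 6 fragments, or 0.351 to 0.436 when scaled, so acetylation under that level could not be seen. All 7 melanocyte lineage markers (Mitf, Sox10, Pmel, Tyr, Tyrp1, Dct and Mlana) had a peak within 3 kb of a start in all 4 libraries. Of 7 markers of other cell types, Krt5, Ptprc, Cd3e, Cdh5 and Alb had none in any library, Krt14 had a peak in HP replicate 2, and Pecam1 had a peak in all 4.

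**Figure D1:**
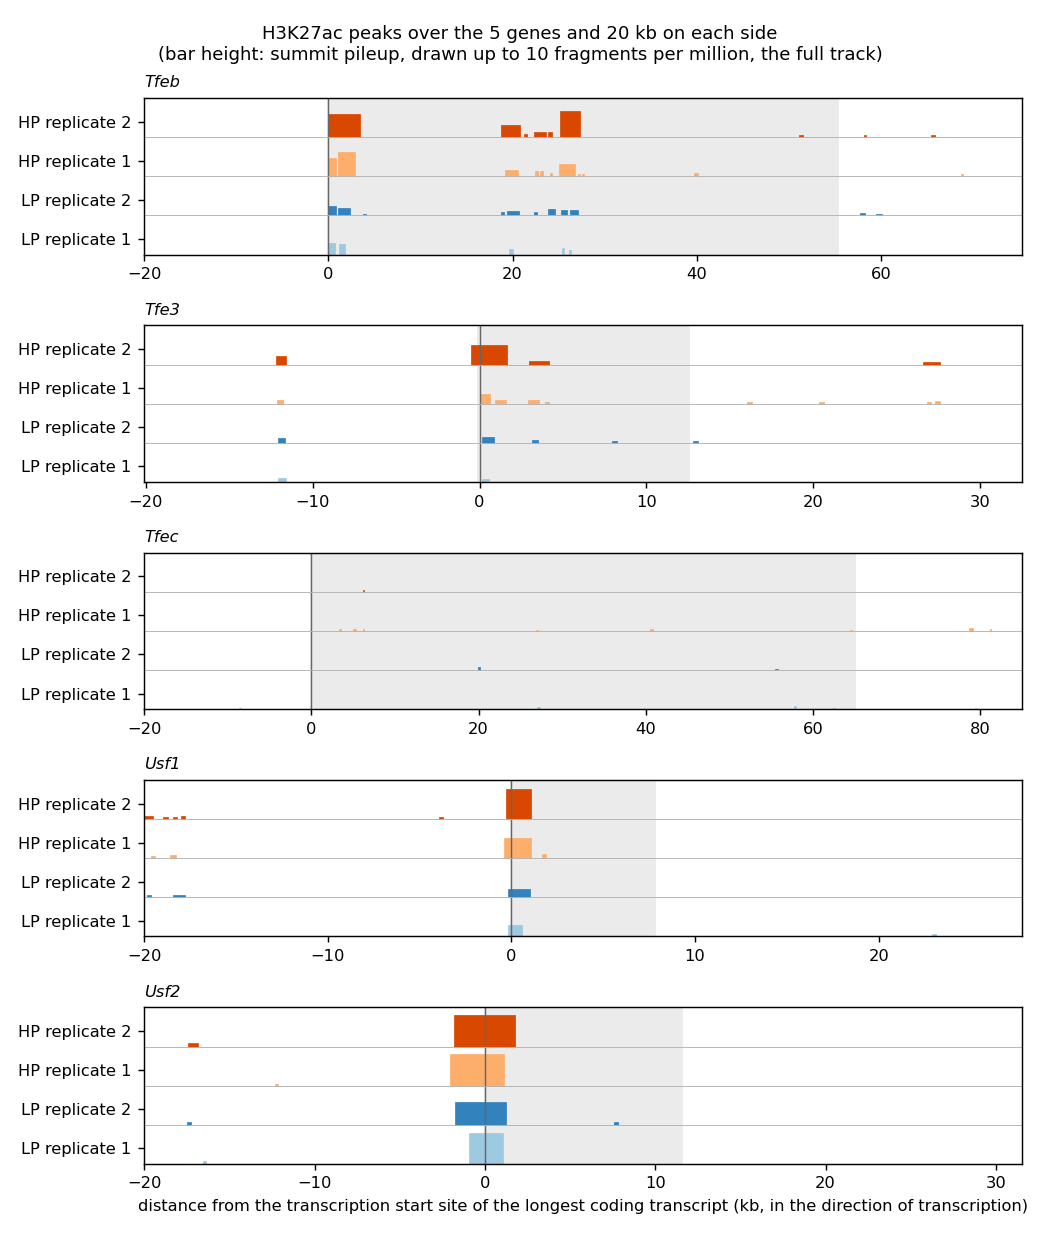
H3K27ac peaks of each library over the 5 genes and 20 kb on each side, placed by distance in kb from the start of the longest coding transcript in the direction of transcription (vertical line, with the gene in grey). Bar height is the summit pileup, scaled per 1000000 fragments and drawn up to 10, which shortens the bars at Usf2 in LP replicate 1 and in both HP libraries. Peaks stand at the start sites of Tfeb, Tfe3, Usf1 and Usf2 and in the first intron of Tfeb, and those of Tfec are thin and scattered.

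Usf2 carried the tallest peak of the group in every library. Its promoter region, chr7:30955025-30958846, reaches from upstream of the gene over exons 1 to 6. That extent into the gene is of the HP replicate 2 peak. In the other libraries the peaks reached no further in than 30955584, and in LP replicate 1 no further than 30955770. The starts of the antisense genes Gm17077 and Gm4673 lie within 3 kb of the region, so the signal cannot be assigned to Usf2 alone. The scaled pileup was 12.0 and 7.16 in LP replicates 1 and 2 and 11.8 and 17.5 in HP, and the groups overlapped, with LP replicate 1 as high as HP replicate 1. Its mean level was 12.1, and its mean log2 level was above that of 95.3% of the 12084 regions called in all 4 libraries.

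Usf1, which pairs with USF2 in the cell, had a promoter region at chr1:171410921-171412368, over the start and the first intron. Its scaled pileup was 3.66 and 2.80 in LP against 6.36 and 9.68 in HP. Both HP libraries were above both LP libraries. The mean level was 5.63, and the mean log2 level was above that of 66.2% of the regions.

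At Tfeb, the promoter region chr17:47736985-47740474 runs from the gene start into intron 1. It measured 3.84 and 3.0 in LP against 7.66 and 7.37 in HP, and the groups did not overlap. These highest summits lay 137 and 544 bp from the start in LP and 1386 and 1468 bp from it in HP. They are therefore not 1 site compared between populations. The peak nearer the start measured 5.83 in HP replicate 1, and the peaks further in measured 3.31 and 2.54 in LP. This region had the closest replicates in HP. It was made of 2 peaks in each LP library and in HP replicate 1, and of 1 joined peak in HP replicate 2.

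Further into intron 1, 20.1 to 26.3 kb from the start, Tfeb held a second acetylated stretch. Its tallest region, chr17:47762046-47764341, covers the start of Tfeb-208, and measured 2.01 and 1.89 in LP against 3.92 and 8.42 in HP. The LP replicate 1 value came from a separate peak with its summit 25555 bp from the gene start. In the other libraries the highest summit lay 26307 to 26326 bp from it. The LP replicate 1 peak over the Tfeb-208 start measured 1.40. The region chr17:47755807-47757792, 20.1 kb from the start, measured 1.92 and 1.43 in LP against 2.18 and 3.86 in HP. In both, every HP library was above every LP library, and HP replicate 2 was the highest. In HP replicate 2 the region at Tfeb-208 was taller than the promoter region itself, which was not so in the other libraries. Between these regions lay others that were called in LP replicate 2 and both HP libraries and not in LP replicate 1, at chr17:47759322-47760645 with 1.24, 1.65 and 1.75, and at chr17:47760864-47761607 with 1.95, 1.22 and 1.68 in that order. The latter was highest in LP.

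Tfe3 had the lowest promoter peak of the 4 acetylated genes. Its region chrX:7762118-7764282 spans the starts of 12 of its 14 transcripts and measured 1.05 and 1.89 in LP against 3.05 and 6.31 in HP. That span is the extent of the HP replicate 2 peak. In the other libraries the peaks began at 7762682 or later, past the gene start at 7762560. The HP libraries were both above the LP libraries, and replicates of a population differed from each other by 1.81 times in LP and 2.07 times in HP. A region in intron 2, chrX:7765550-7766822, was called in LP replicate 2 (0.977) and in both HP libraries (1.22 and 1.26). The flanking region at the start of Ccdc120, chrX:7750453-7751053, was called in all 4 libraries, at 1.31 and 1.43 in LP against 1.22 and 2.60 in HP, and there the groups overlapped.

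Over the local background that MACS estimates from the matching IgG library, the highest fold enrichment of the authors at the Usf1 promoter was 8.68 in LP and 14.9 in HP for replicate 1, and 14.8 and 54.3 for replicate 2. At the Tfeb promoter it was 7.18 and 10.8, then 12.2 and 26.9, and at Usf2 22.2 and 24.2, then 37.4 and 96.0. Within each replicate number HP had the higher value at these promoters, and also at the Tfe3 promoter. IgG depth differed between the replicate numbers, with 8701778 and 19358733 fragments, so only values of the same number were set against each other. How often HP had the higher fold enrichment over all regions was not computed. For scaled pileup, the log2 ratio of HP to LP was above 0 at 99% of the regions called in all 4 libraries.

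The order of the promoter peaks was much the same from library to library. Among the tallest promoter regions of the 4 genes, Usf2 was the highest and Tfe3 the lowest in all 4 libraries. In LP replicate 2 Tfe3 was level with the Tfeb-208 region at 1.89. The Tfeb region at 20.1 kb also lies within 3 kb of annotated Tfeb starts. It was above Tfe3 in LP replicate 1 (1.92) and below it in LP replicate 2 (1.43), HP replicate 1 (2.18) and HP replicate 2 (3.86). Tfeb exceeded Usf1 in LP replicate 1, LP replicate 2 and HP replicate 1 and fell below it in HP replicate 2, so these neighbours did not differ beyond the spread between samples.

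**Figure D2:**
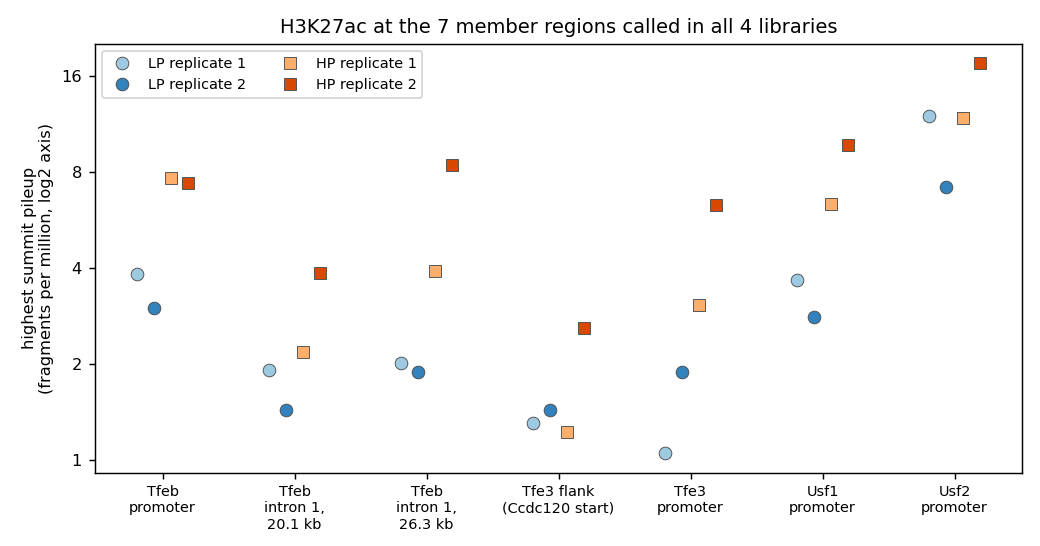
Highest summit pileup per 1000000 fragments (log2 axis) at the 7 member regions called in all 4 libraries, 1 point per library. Squares (HP) lie above circles (LP) at 5 of the 7 regions, and overlap them at the Tfe3 flank and at Usf2.

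HP and LP were compared with limma on log2 scaled pileup over all 12084 regions called in all 4 libraries, with Benjamini-Hochberg adjustment and a threshold of 0.05. Every log2 ratio had the same standard error, 0.54, since limma pooled the spread of all regions. None of the 7 member regions passed, where 485 regions (4.01%) were called higher in HP and 0 lower. At an unadjusted p under 0.05 in limma, 4 of the 7 were higher in HP, against 36.2% of all regions. The groups did not overlap at 5 of the 7, against 74.8% of all regions with both HP libraries above both LP libraries. Over all regions the log2 ratio of HP to LP had a median of 0.92, so each ratio is given beside that shift. In these bulk samples, fewer cells with an acetylated site and less acetylation per cell cannot be told apart. The labels give equal DNA input within a replicate set. Pileups were scaled to the fragments of each library, so a ratio of scaled pileups is a ratio of shares of the precipitated DNA. A difference in the total amount precipitated would not show in it.

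The Tfe3 promoter had the largest ratio of the 7, a log2 of 1.64 (SE 0.54; limma adjusted p = 0.0516). This was above the ratio of 95.1% of the regions tested. The Tfeb-208 region followed with 1.56 (limma adjusted p = 0.0597), above 93.2%, and then Usf1 with 1.29 (limma adjusted p = 0.0958), above 81.9%. The Tfeb promoter had 1.15 (limma adjusted p = 0.120). These 4 had an unadjusted limma p of 0.00251, 0.00405, 0.0173 and 0.0346. With the mean of the summit pileups in place of the highest, the Tfe3 promoter had 1.37 (limma adjusted p = 0.153) and Tfeb-208 had 1.36 (limma adjusted p = 0.154). Usf1 and the Tfeb promoter then had 1.29 and 1.16. The Tfe3 value in LP replicate 1 rested on 12 fragments.

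The remaining ratios were below the median of all regions. The Tfeb region 20.1 kb into the gene had 0.81 (limma adjusted p = 0.223), Usf2 had 0.63 (limma adjusted p = 0.315), and the Tfe3 flank at Ccdc120 had 0.38 (limma adjusted p = 0.523). Thus the tallest promoter of the group, Usf2, had a ratio larger than that of 21.7% of the regions.

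With each library centred on its own median, a scaling that moves the median of all regions from 0.92 to -0.09, 3 of the 7 regions turned to below 0. Of all regions, 41.5% were above 0 after centring. The ratios became 0.63 at the Tfe3 promoter, 0.55 at Tfeb-208, 0.28 at Usf1 and 0.14 at the Tfeb promoter, and -0.21 at the Tfeb region at 20.1 kb, -0.38 at Usf2 and -0.63 at the Tfe3 flank. After centring, HP was above LP without overlap at 2 of the 7 regions, against 12.1% of all regions, and no region of the 12084 passed in either direction. Centring lowers every ratio by the same amount, so which regions turned follows from their ratios before it and is no further result.

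The HP libraries were unequal. Between libraries of the same replicate number, the log2 ratio of HP to LP at the 7 regions had a median of 0.80 in replicate 1 and 1.43 in replicate 2, and it was larger in replicate 2 at 7 of the 7. Over all regions the medians were 0.57 and 1.30, and 81.0% were larger in replicate 2. At the Tfe3 promoter the replicates were close, at 1.54 and 1.74, and so they were at the Tfeb promoter, at 1.00 and 1.30. At Usf2 they were -0.03 and 1.29, and at Tfeb-208 they were 0.97 and 2.16. Without HP replicate 1, 4 of the 7 passed (Tfe3, Tfeb-208, Usf1 and the Tfeb region at 20.1 kb, limma adjusted p between 0.000933 and 0.0407), where 6930 regions of the whole table (57.3%) passed as well. None passed when LP replicate 1, LP replicate 2 or HP replicate 2 was left out instead.

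**Figure D3:**
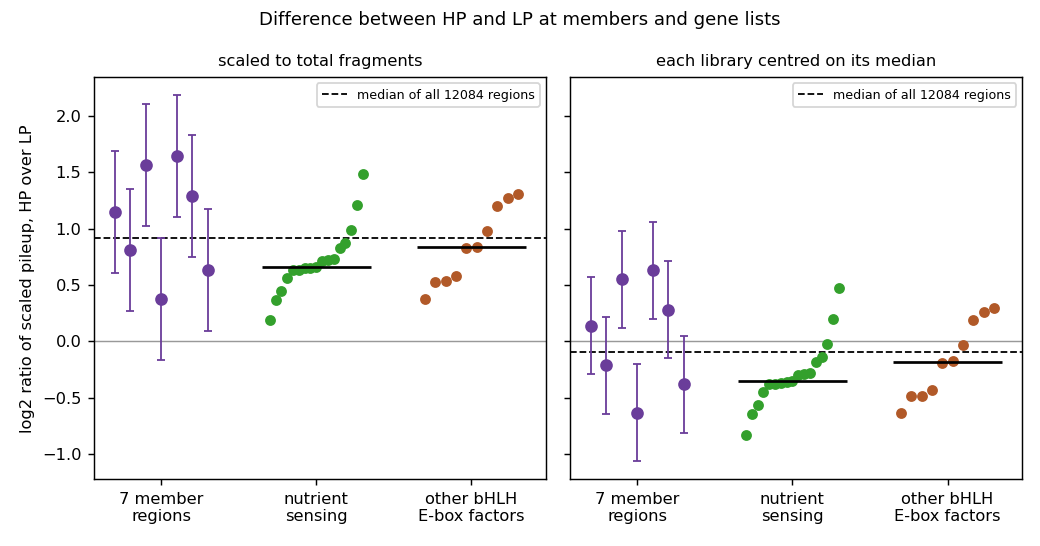
Log2 ratio of scaled pileup, HP over LP, for the 7 member regions (error bars, SE of the limma fit; from left to right the Tfeb promoter, the Tfeb intron at 20.1 and at 26.3 kb, the Tfe3 flank, and the Tfe3, Usf1 and Usf2 promoters), and for the tested promoter regions of a nutrient-sensing list and of other bHLH E-box factors (bars, medians). On the left, scaled to total fragments, all points lie above 0 and around the median of all regions at 0.92; on the right, centred, the same points lie on both sides of 0.

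The mean length covered by peaks was also larger in HP at the 7 regions, by 1.08 to 3.06 times. At 5 of the 7 both HP lengths exceeded both LP lengths, against 61.3% of all regions. The Tfe3 promoter was covered over 439 and 671 bp in LP against 1235 and 2165 bp in HP, 3.06 times as long on average, where the median over all 12084 regions was 1.54 times and the Tfe3 value exceeded 92.2% of them. The Tfeb-208 region was covered over 574 and 1613 bp in LP against 2035 and 2200 bp in HP (1.94 times). The Tfeb promoter was covered over 1461 and 2041 bp in LP against 2565 and 3455 bp in HP (1.72 times). At Usf1 the ratio was 1.48 and at Usf2 1.38, below the median of all regions. The lengths overlapped between groups at the Tfeb region at 20.1 kb and at the Tfe3 flank. Height and length are read from the same fragments, so the lengths are no separate evidence for the heights.

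**Figure D4:**
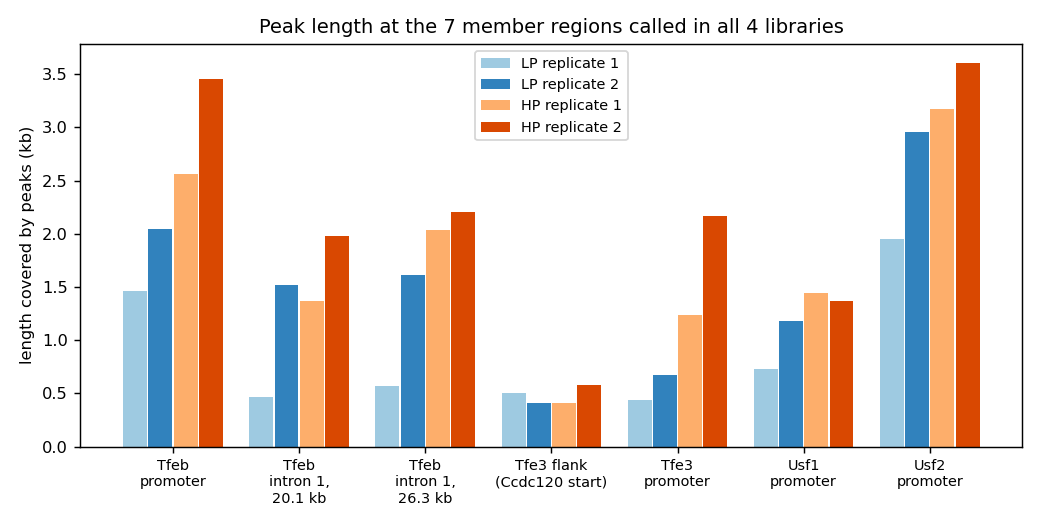
Length in kb covered by peaks in each library at the 7 member regions called in all 4 libraries, 1 bar per library. The Tfe3 promoter was longest in HP replicate 2, with 2165 bp, and shortest in LP replicate 1, with 439 bp.

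The genes whose promoter regions ran closest to those of the members over the 4 libraries were sought among 10121 protein-coding genes, by the Euclidean distance of the log2 scaled pileups. Nearest to Tfeb were Gmnn (0.053) and Sntb2 (0.103). Dnaaf2 and Gm49383, which share a region, were nearest to Usf1 (0.042), and Ift43 and Tgfb3, which share another, were nearest to Tfe3 (0.133). Scaf8 (0.085) and Kif21a (0.092) were nearest to Usf2. These distances rest on 4 libraries.

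Outside the 7 regions, acetylation at the members was thin and mostly seen in a single library. Of the 48 regions 31 were called in 1 library, 13 in an LP and 18 in an HP library, and these held between 5 and 17 fragments. The share of 64.6% compares with 81.7% over all regions. There the split went the other way, with 79194 called in an LP and 70277 in an HP library alone. By position 18 of the 48 lay within 3 kb of a start of the member, 9 in the rest of the gene body and 21 in the flanks. The number of peaks was 16 and 24 in LP against 34 and 22 in HP, a ratio of 1.40 where the whole lists had 1.09. The populations overlapped, since HP replicate 2 had fewer peaks than LP replicate 2. The covered length was 7768 and 15812 bp in LP against 19239 and 22899 bp in HP, and here they did not overlap. Longer coverage in HP was general. Of the 12084 regions called in all 4 libraries, 61.3% had both HP lengths above both LP lengths, with a median ratio of 1.54. Those are values for single regions, and summed lengths were not computed for other genes.

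In both HP libraries and in neither LP library, 2 of the 48 regions (4.17%) were called, against 3.94% of all regions. No member region was called in both LP libraries and in neither HP library, against 0.249% of all regions. Both shares were near the background. The first of the 2 lay downstream of Tfe3 at chrX:7789248-7790246, within 3 kb of a start of Gripap1, and measured 0.958 and 0.702. The second lay in intron 1 of Tfec at chr6:16892093-16892327, with 0.522 and 0.491, which is 6 and 7 fragments and close to the lowest pileup that was called. A further 5 regions (10.4%) were called in both HP libraries and 1 LP library, each time LP replicate 2, and 0 in both LP libraries and 1 HP library. Of all regions, 3.62% and 0.170% had these patterns, so HP was favoured over all regions as well, with a smaller share of the first pattern.

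The Tfec region in intron 1 is shown because, of the 2 regions called in HP alone, it is the one inside a member, and because it holds a match to TCATGTG, the core of the M-box to which MITF binds (capitals, mm10, plus strand). The match begins 125 bp from the summit and so is not among those within 100 bp counted for the members. Within 250 bp of the summit, 9.67% of all regions called in 1 to 3 libraries held TCATGTG.
Tfec intron 1, chr6:16892093-16892327 (+): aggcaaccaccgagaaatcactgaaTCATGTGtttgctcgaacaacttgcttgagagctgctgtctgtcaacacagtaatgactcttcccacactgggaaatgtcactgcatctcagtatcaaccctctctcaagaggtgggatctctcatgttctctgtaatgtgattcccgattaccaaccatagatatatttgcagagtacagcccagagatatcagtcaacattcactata

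Tfec, whose product is known chiefly from macrophages, had 14 regions in all, 12 of them called in 1 library, with at most 15 fragments each. Peaks were 5 and 2 in LP against 8 and 1 in HP. The nearest to the start was in intron 1, 3372 bp away, in HP replicate 1 alone. The populations overlapped, and no region of Tfec could be tested.

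E-boxes were searched within 100 bp of the tallest summit of each region, on both strands, as CACGTG, as TCACGTGA, which contains it and is part of the lysosomal CLEAR element, and as TCATGTG. None of the 7 regions called in all 4 libraries held a match to any of them. Among the 10064 regions of this class within 3 kb of a start, 3.79%, 0.248% and 0.735% did. In the remaining 41 member regions CACGTG was found in 4 and TCATGTG in 3, and of all regions called in 1 to 3 libraries 2.80% and 3.75% held a match. Over its whole length the Usf2 region held a CACGTG at position 30958225 of chromosome 7 and TCATGTG at 30955723 and 30956903, none of them at the summit.

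The neighbours of these factors in the pathway were read from lists. Of 20 genes of the nutrient-sensing control of TFEB and TFE3 (folliculin and its partners, Rag GTPases, Ragulator, mTORC1, TSC, Rheb, the lysosomal channel Mcoln1 and calcineurin), 17 had a promoter region in all 4 libraries, and 0 passed in either direction by limma. At an unadjusted p under 0.05, 2 were higher in HP, against 36.2% of all regions. Their median log2 ratio was 0.66, below the 0.92 of all regions, and -0.35 after centring. Highest were Lamtor3, a Ragulator subunit (1.48, limma adjusted p = 0.0701), and Rraga, a Rag GTPase (1.21, limma adjusted p = 0.109). Lowest were Fnip1, a folliculin partner (0.19), and Ppp3cb, a calcineurin subunit (0.37). Rragb, Mlst8 and Tsc2 had no such region.

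Of 12 other bHLH factors that bind E-boxes, 10 were tested and 0 passed in either direction, and 3 were higher in HP at an unadjusted limma p under 0.05, again beside 36.2% of all regions. Their median log2 ratio was 0.83, and -0.18 after centring. Highest were Bhlhe41, a circadian repressor (1.31, limma adjusted p = 0.0939), and Srebf1, a regulator of lipid synthesis (1.27, limma adjusted p = 0.0986). Lowest were Usf3 (0.38) and Bhlhe40 (0.53). Mitf, the relative of Tfeb, Tfe3 and Tfec, measured 1.83 and 2.28 in LP against 3.22 and 4.07 in HP at its tallest region near a start, with a log2 ratio of 0.83 (limma adjusted p = 0.214). Mlx and Mlxipl had no region called in all 4 libraries. Without HP replicate 1, 6 genes of the first list and 5 of the second passed, with 57.3% of all regions.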

How the data were processed

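Per the labels and the study's methods, cells were fixed in formaldehyde for 10 minutes (1% in the labels, another value in the methods), sheared and precipitated. The authors converted reads with bcl2fastq 2.20, trimmed them with Trimmomatic 0.33, aligned them to mm10 with Bowtie2 2.5.1 and called narrow peaks with MACS 3.0.0b1 per library, with the matching IgG library as control, duplicates kept and a q-value cutoff of 0.05. The deposited pileup is a signal, the whole number of fragments at a summit. The authors' MACS output also holds a ratio, the fold enrichment over local background, and −log10 p-values and −log10 q-values, which were used here only to describe or filter peaks.

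Pileups were scaled to 1000000 fragments per library. Peaks that overlapped by at least 1 bp were merged, and a region took the highest summit of each library. Regions called in all 4 libraries were compared with limma 3.58.1 in R 4.3.3 (lmFit, eBayes, no replicate block), with Benjamini-Hochberg adjustment over 12084 regions and a threshold of 0.05. An exact two-sided permutation test of 2 against 2 cannot go below 0.333, so no single value was tested alone. Read counts were not used here, so the DiffBind comparison of the study's methods was not run. Promoter meant 3 kb on either side of any annotated start of the gene. Sequences were read from the mm10 reference, and motifs were matched on both strands. Regions, patterns and the limma fit were tested on simulated data. Python 3.11.15, pandas 2.3.3 and matplotlib 3.10.9 were used.

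Members and lists were chosen with earlier results of these data known. Named by rule were the 5 genes, their tallest promoter region called in all 4 libraries, any region that passed, the 2 genes nearest to each promoter and, of each list, the genes that passed, the 2 highest and the 2 lowest. Mitf and the other regions were named after their values were seen. Equal DNA input within a replicate set and an IgG library for each set pair the samples by number. Across 12084 regions the replicate difference in LP and that in HP correlated at 0.0153. Alternatives were the block, centring, quantile normalization, other scaling, summits, q-values, windows and overlaps, lists of equal size, and leaving out each library.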

Additional observations from a re-analysis of the deposited data

How the results depend on the processing

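With the replicate block, that is with the samples paired by number, 88 regions of the whole table were higher in HP instead of 485, and the block changed no call at the 5 genes or in the lists, with adjusted p from 0.0645 at Tfe3 to 0.329 at Usf2 among their promoters and a peak ratio of 1.40. The 485 became 0 with centring, quantile normalization or mean summit pileups (at an unadjusted p under 0.05, 177, 227 and 3253 higher and 275, 207 and 0 lower), 9 when scaled to fragments times fragment length, and 33 of 10926 at a q-value of at most 0.001. Leaving out a library gave 0 to 6930, and 0 to 4 of the 7 member regions, 0 to 6 genes of the nutrient-sensing list and 0 to 5 of the other bHLH factors, the higher figure each time without HP replicate 1. A population left with a single library was assumed to vary like the other. Centring and quantile normalization turned the log2 ratio to -0.21 and -0.25 at the Tfeb region at 20.1 kb, to -0.63 and -0.68 at the Tfe3 flank and to -0.38 and -0.05 at Usf2, and the flank ran from -0.17 without HP replicate 2 to 0.92 without HP replicate 1. Centring left 2 instead of 5 regions with HP above LP without overlap. The count of 2 regions called in both HP libraries alone was 1 at a q-value of at most 0.001, within the genes, within 3 kb or with an overlap of 50%, 4 within 50 kb, and 7 to 20 between single lists. For LP alone it was 1 within 50 kb and 6 to 7 between single lists, in place of 0. The peak ratio of 1.40 was 0.917 in replicate 2 and 2.12 in replicate 1. Within 1 kb, 10 and not 18 regions lay at a start. The cause of these shifts was not tested. The centring and leave-out values for the lists, and the centred count, were chosen after seeing the data. With 2 libraries per population and pileups near 5 fragments in the thin regions, small differences at Tfec were not detectable.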
